A study of Homo sapiens with 4 samples.

Results

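The zinc finger genes of chromosome 19 were described in 697, a human cell line long established from a B-cell precursor leukaemia, treated for 24 h with MZ1 or solvent. They were taken by name and position: every protein-coding row of the count table with a symbol of ZNF and a number that lies on chromosome 19 in the GENCODE annotation (GRCh38), 1 such gene being left out by the rule. This gave 231 genes of the 28814 rows in the table. Of 240 genes that the annotation lists under the same rule, 9 had no row. The groups were 2 libraries of cells treated with DMSO and 2 of cells treated with 1 µM MZ1, a degrader in which a bromodomain-binding part (JQ1) is tied to a binder of the VHL ubiquitin ligase, so that BET proteins are marked for destruction. Both groups are the same line, and no genetic change between them is named. Separate cultures are not stated for the replicates in the labels, and p-values then measure only the spread among these libraries, which may be technical. Fewer cells and less RNA per cell cannot be told apart in bulk samples.

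Most of these genes encode C2H2 zinc finger proteins, in which an array of finger modules reads a DNA sequence. Many also carry a KRAB domain near the start of the protein. KRAB binds the corepressor TRIM28 (KAP1), which brings in the histone methyltransferase SETDB1 and HP1 proteins, and the resulting heterochromatin silences, among others, transposable elements. The family grew by repeated tandem duplication, which is why its genes stand in clusters of near relatives on chromosome 19, and the clusters are themselves known to carry heterochromatin marks.

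The libraries held 14246367 to 16488005 counted reads. Levels are read counts scaled to a common library size (CPM) after TMM scaling, or, where genes are compared with each other, CPM per kilobase of exon (RPKM). Since the labels name no spike-in, levels are relative to a scaled library size, and log2 fold changes, given as MZ1 over DMSO, are relative to other genes. All 8 B-lineage markers checked had reads, with a summed level of 2304 and 2318 CPM in the DMSO libraries and 979.6 and 1018 CPM in the MZ1 libraries. The summed level of the 3 myeloid markers was 6.35 and 5.31 CPM with DMSO and 11.2 and 10.3 CPM with MZ1, but they went opposite ways. LYZ was at 0.31 and 0.06 CPM with DMSO and 2.62 and 2.67 CPM with MZ1, and CD14 at 0.43 and 0.59 CPM against 7.57 and 6.72 CPM. CSF1R was at 5.62 and 4.66 CPM with DMSO and 0.99 and 0.87 CPM with MZ1. Of the T-cell markers CD3E, CD3D and CD2, 0 had a row. The part of other cells in the results was not tested.

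As a group the genes stood at a higher summed level after MZ1. After TMM scaling it was 4245 and 4270 CPM in the 2 DMSO samples and 6321 and 6317 CPM in the 2 MZ1 samples. This is 1.48 times as high, beside 1.05 times for the summed level of all tested genes. Of the 231 genes 221 passed the filter on low counts and were tested. Of these 125 were higher and 61 lower with MZ1 by edgeR's quasi-likelihood test (called where p, adjusted by Benjamini-Hochberg over all genes, was under 0.05), and 35 were not called. Over all 16862 tested genes 42.8% were called higher and 41.3% lower, 84.2% in all, against 56.6% higher and 27.6% lower here. The median log2 fold change was 0.43, beside 0.05 over all tested genes and −0.20 over 12639 tested protein-coding genes. The middle 50% of the zinc finger genes lay between −0.48 and 1.27. At least a 2-fold change was seen in 78 of the genes that rose and in 28 of those that fell, where 29.0% and 26.2% of all tested genes were called with such a change. The MZ1 and DMSO libraries did not overlap for 204 of the 221 genes, beside 91.3% of all tested genes. With upper-quartile scaling, which moved all fold changes up by a median of 0.27, 144 were higher and 48 lower, so that rises made up 75.0% of the calls in place of 67.2%. Over all genes the share of rises among calls moved likewise, from 50.9% to 58.5%, and the median log2 fold change from 0.05 to 0.32.

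The filter kept some genes through 1 group alone. Among the 221 tested genes 10 were under its limit of 0.655 CPM in both DMSO libraries and 4 in both MZ1 libraries. The 10 are all among the called rises and the 4 among the called falls, and since a gene that passed through 1 group alone had to differ, their calls are no support. Of the 10, 5 lie in cluster C of the clusters described next (ZNF442, ZNF563, ZNF564, ZNF763 and ZNF799). The 10 untested genes had at most 8 reads in any library. One of them is ZNF274, a KRAB zinc finger protein known to bind the 3′ ends of zinc finger genes and to recruit SETDB1 there; it was singled out after its values were seen. It had 0 reads in both DMSO libraries and 4 and 1 reads in the MZ1 libraries. ZNF274 is known to be widely expressed and the counting method is not given, so these counts do not show that the gene is silent here. For 16 of the 231 genes over 40% of the exonic length is shared with another annotated gene. Near-identical family members can also share or lose reads, so single values are less certain than for most genes.

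The genes were then followed along the chromosome. Clusters were defined as runs of family genes whose start sites follow each other within 1 Mb, with at least 5 measured members. There were 9, called A to I from the end of the short arm to the end of the long arm, and they held 224 of the 231 genes. On the short arm lie A (2.8 to 2.9 Mb, 5 genes), B (7.1 to 9.8 Mb, 15 genes), C (11.5 to 12.6 Mb, 25 genes) and D (19.7 to 24.0 Mb, 32 genes). On the long arm lie E (34.7 to 35.0 Mb, 5 genes), F (36.2 to 37.8 Mb, 25 genes), G (43.5 to 45.1 Mb, 21 genes), H (51.6 to 53.5 Mb, 39 genes) and I (55.5 to 58.5 Mb, 57 genes). On the short arm 56 of 73 tested genes were higher and 12 lower (median 0.99), and on the long arm 69 of 148 were higher and 49 lower (median 0.20). The difference between arms or clusters was not tested, since neighbouring genes are not replicates.

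**Figure D1:**
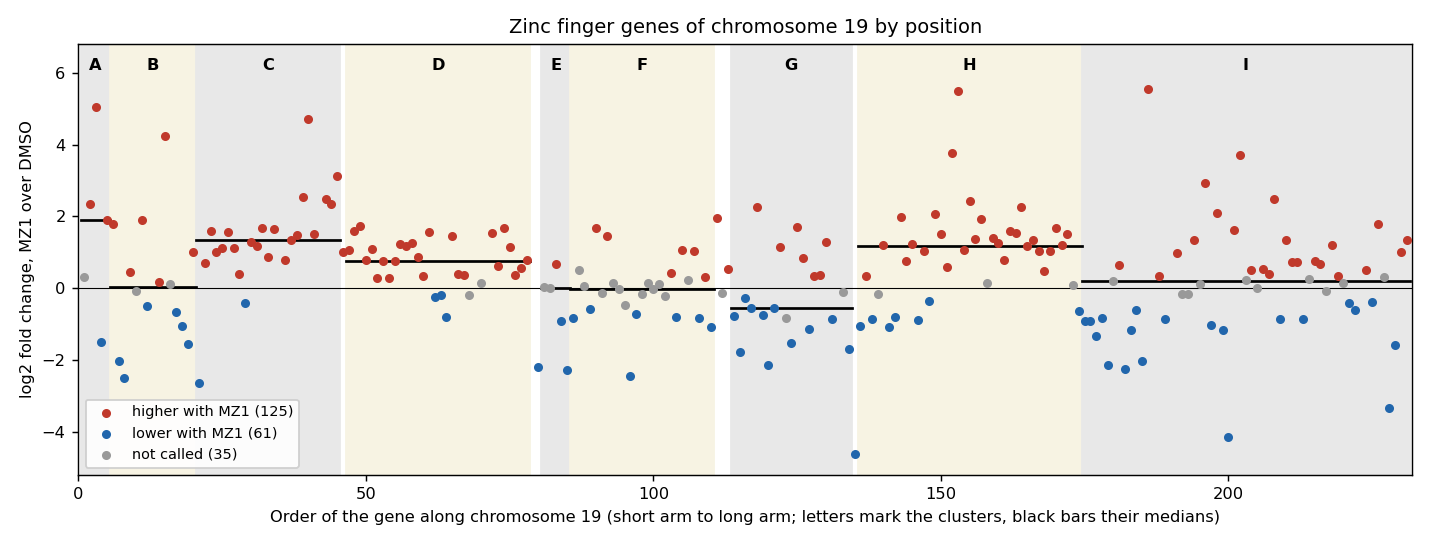
Log2 fold change (MZ1 over DMSO, vertical axis) of the 221 tested genes, placed by their order along chromosome 19 (horizontal axis). Colours give the call, shading and letters the clusters, and black bars the cluster medians, which are highest in A, C, H and D.

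Clusters C, D and H held most of the rises. In C 21 of 23 tested genes rose and 2 fell (median 1.34), in D 25 of 30 rose and 3 fell (median 0.77), and in H 29 of 39 rose and 7 fell (median 1.18). The rises of C include ZNF442, ZNF563, ZNF564, ZNF763 and ZNF799, and those of H ZNF534 and ZNF578. These passed the filter through the MZ1 libraries alone, so their calls are no support. The summed level of cluster C was 168 and 174.5 CPM in the DMSO libraries and 396.5 and 409 CPM in the MZ1 libraries. That of cluster D was 943 and 907 CPM with DMSO and 1646 and 1697 CPM with MZ1. Cluster H held 818 and 851 CPM with DMSO and 1763 and 1736 CPM with MZ1. Summed levels thus stood 2.35 times as high in C, 1.81 times in D and 2.096 times in H, and in each of them both MZ1 libraries lay above both DMSO libraries.

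Clusters B, E, F and G were mixed. In B 6 of 14 rose and 6 fell (median 0.02), in E 1 of 5 rose and 2 fell (median 0.01), and in F 6 of 25 rose and 7 fell (median −0.02), while 12 of the 25 in F were not called. Cluster G had the lowest median of the 9, with 7 of 20 higher and 11 lower (median −0.56). Its summed level was 224 and 217 CPM with DMSO and 213 and 217 CPM with MZ1, so that the 4 libraries lay close together. The summed level of F was 474 and 478 CPM with DMSO and 403 and 409 CPM with MZ1. With upper-quartile scaling the median of F was above 0 (0.25) and that of G stayed below (−0.29), beside 0.32 over all tested genes. Cluster A, of 5 genes, had 3 higher and 1 lower (median 1.90).

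Cluster I, the largest, held 24 higher and 20 lower genes among 54 (median 0.20), with a summed level of 1021 and 1033 CPM with DMSO and 1285 and 1250 CPM with MZ1. When runs were broken at 0.5 Mb, it split into an inner and an outer run. In the inner one (55.5 to 56.7 Mb) 3 of 14 tested genes were higher and 10 lower (median −0.89). In the outer one (57.2 to 58.5 Mb) 21 of 40 were higher and 10 lower (median 0.37).

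**Figure D2:**
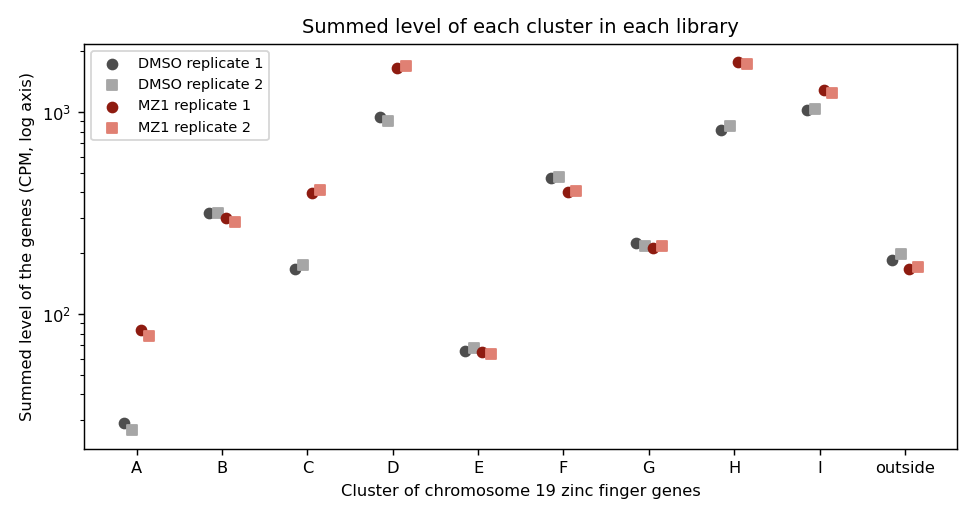
Summed level of the genes of each cluster (CPM, logarithmic vertical axis) in each of the 4 libraries, by cluster and for the genes outside the clusters (horizontal axis). The MZ1 libraries lie above the DMSO libraries in A, C, D, H and I, and below them in B, E, F and outside the clusters, while in G they lie close together.

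Rises ran over long stretches of neighbouring genes. In D 15 consecutive tested genes from ZNF101 to ZNF431 (start sites at 19.67 to 21.14 Mb) were all called higher, with a median log2 fold change of 1.07. In C the 14 from ZNF763 to ZNF490 (11.97 to 12.64 Mb, median 1.58) and in H the 14 from ZNF28 to ZNF761 (52.86 to 53.43 Mb, median 1.30) were likewise all higher. The run in C includes ZNF442, ZNF563, ZNF564, ZNF763 and ZNF799, which passed the filter through the MZ1 libraries alone. That these are higher was set by the filter and is no support for the run. The longest run of falls was 5 genes in I, from ZNF628 to ZNF784 (55.48 to 55.62 Mb, median −0.93). Of 150 adjacent pairs within clusters in which both genes were called, 101 moved the same way (67.3%), of which 78 were both higher, 23 were both lower, and 49 were opposite. Over all protein-coding genes 5327 of 9613 such pairs moved the same way (55.4%). Part of a higher share follows from the larger share of rises, and the difference was not tested. The pairs also include genes that passed the filter through 1 group alone, such as ZNF442 with ZNF799. The directions of such genes were set by the filter, so these pairs are no support.

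Other protein-coding genes between the first and last start sites of the same clusters were split, with 39 of 88 higher and 40 lower (median −0.03). They include zinc finger genes whose symbols have another form, such as ZFP14, ZFP30, ZFP82, ZNF585A and ZNF585B in F. Zinc finger genes of the same naming on other chromosomes were also split, with 70 of 200 higher and 85 lower (median −0.07, or 0.20 with upper-quartile scaling). Of all other protein-coding genes of chromosome 19, those inside the clusters included, 769 were tested. Of these 271 were called higher and 382 lower (median −0.29, or −0.02 with upper-quartile scaling). They too hold zinc finger genes of other symbols, such as ZNF780A and ZNF780B.

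The proteins of the genes were searched for a KRAB match, which 193 of the 231 genes had. Among tested genes with the match 116 of 185 were higher and 40 lower (median 0.67), and among those without it 9 of 36 were higher and 21 lower (median −0.63). The directions were the same with upper-quartile scaling (medians 0.94 and −0.36). The 10 genes that passed the filter through the MZ1 libraries alone all have the match. They are counted among its 116 rises, ZNF560 in B and ZNF667 in I included, and their rises are no support. Genes kept that way on other chromosomes were not set apart. Within cluster B 6 of 11 genes with the match rose and 3 fell, while all 3 without it fell. In G 7 of 15 with the match rose and 7 fell, and of 5 without it 0 rose and 4 fell. In I 20 of 39 with the match rose and 11 fell, against 4 and 9 of 15 without it. The few genes without the match in C, D and H did not go that way: 1 rose and 1 fell of 2 in C, 1 rose and 0 fell of 2 in D, and both rose in H. In I the match is mixed with position. The run of 5 falls from ZNF628 to ZNF784, all without the match, lies in the inner part of I, as does ZNF787. Most genes fell there, 10 of 14 tested. In the outer part (57.2 to 58.5 Mb) genes without the match went both ways. On other chromosomes 34 of 79 tested genes with the match were higher and 27 lower (median 0.003, or 0.27 with upper-quartile scaling), so the share of rises among genes with the match was 62.7% on chromosome 19 and 43.0% elsewhere. These classes were compared as counts, with no test. Genes with and without the match also differ in level, with median DMSO levels of 2.58 and 5.44 RPKM, and its part in the result was not tested.

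**Figure D3:**
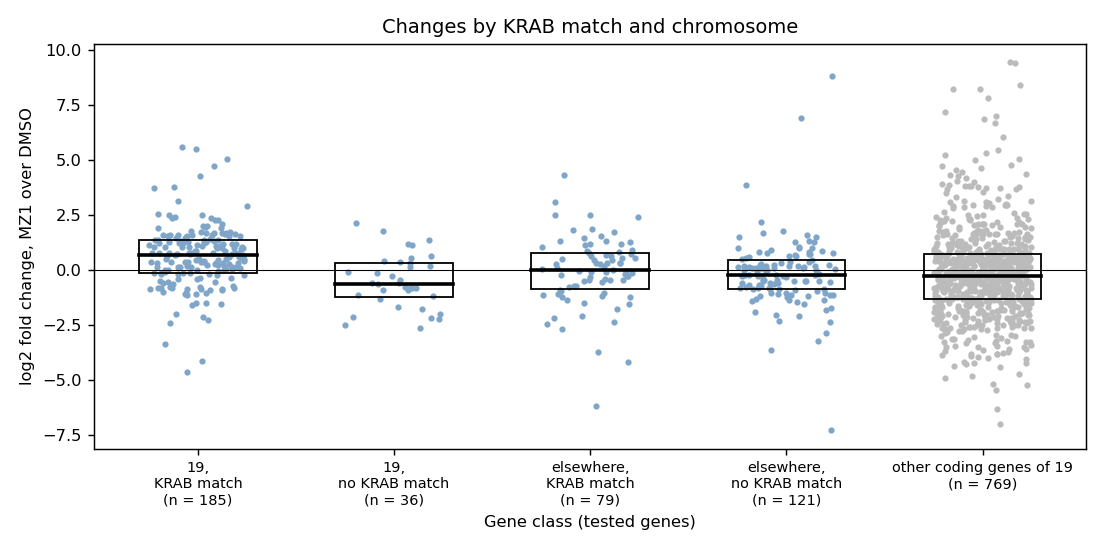
Log2 fold change (MZ1 over DMSO, vertical axis) of tested zinc finger genes with and without a KRAB match on chromosome 19 and elsewhere, and of the other protein-coding genes of chromosome 19 (horizontal axis). The last class includes zinc finger genes whose symbols have another form. Points are genes, thick lines medians and boxes the middle 50%; the median is 0.67 for the 185 genes of chromosome 19 with the match and 0.003 or lower in the others.

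The number of C2H2 finger matches ran from 0 to 32, with a median of 12. Of the 56 tested genes with the fewest (0 to 9) 22 rose and 26 fell (median −0.06), and of the 55 with the most (15 to 32) 36 rose and 12 fell (median 0.75). Across the 221 genes Spearman's rho between finger matches and fold change was 0.20, a description across genes that are not independent of each other. By the mean of the DMSO and MZ1 levels, 24 of the 56 lowest genes (up to 1.63 RPKM) rose and 21 fell, and 41 of the 55 highest (6.19 to 29.4 RPKM) rose and 10 fell (rho 0.13). A rise with MZ1 itself lifts this mean and a fall lowers it, so the trend with level is partly built in.

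ZNF91, the tested gene with the most finger matches (32), is known to repress SVA retrotransposons. It lies in cluster D at 23304991 to 23395560 on the minus strand (ENSG00000167232) and was at 49.4 and 49.7 CPM in the DMSO libraries and 157 CPM in both MZ1 libraries. The groups did not overlap, and the log2 fold change was 1.66 ± 0.05 (SE; edgeR adjusted p = 1.09e-19). ZNF93 of the same cluster, known to repress LINE-1 elements, was at 33.0 and 31.9 CPM with DMSO and 67.4 and 70.5 CPM with MZ1, and rose by 1.09 ± 0.07. The strongest rise of cluster D was that of ZNF506, from 29.4 and 29.5 CPM to 93.0 and 102 CPM (1.73 ± 0.07). The largest fall there was that of ZNF493, from 29.0 and 28.9 CPM to 16.1 and 16.7 CPM (−0.82 ± 0.10). ZNF738 of this cluster, whose longest reading frame held 0 finger matches, was at 40.1 and 38.4 CPM with DMSO and 32.5 and 36.3 CPM with MZ1. It was called lower by a narrow margin (−0.19 ± 0.08; edgeR adjusted p = 0.0352), a call lost with DESeq2 (adjusted p = 0.248), with its size factors in edgeR, with a stricter count filter, and without DMSO replicate 1 (−0.21) or MZ1 replicate 1 (−0.11). With upper-quartile scaling it was at 0.08.

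In cluster C the largest rise was that of ZNF799, which was close to 0 with DMSO. It was at 0.31 and 0.65 CPM in the DMSO libraries (16 reads in all) and 12.4 and 13.1 CPM in the MZ1 libraries. The gene is 1 of the 10 that passed the filter through the MZ1 libraries alone, so its log2 fold change of 4.71, imprecise at these counts, is given as a description. ZNF653, 1 of the 2 genes of the cluster that fell, has no KRAB match and is known as a repressor that acts with nuclear receptors. It fell from 6.05 and 6.90 CPM to 1.13 and 0.94 CPM (−2.63 ± 0.29; edgeR adjusted p = 6.23e-09).

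At the end of C nearest the centromere, ZNF490 and ZNF791 are transcribed away from each other from RefSeq start sites close together, and both rose. GENCODE also places a start of ZNF490 further away, at 12640098. ZNF490 went from 1.95 and 2.07 CPM to 16.6 and 18.4 CPM (3.12 ± 0.18), with 61.3% of its exonic length shared with another annotated gene, so its count is uncertain. ZNF791 (12610918 to 12633840, plus strand), which shares no exonic length, went from 21.1 and 21.6 CPM to 106 and 110 CPM (2.34 ± 0.07; edgeR adjusted p = 1.52e-20). The 106 bases upstream of both RefSeq starts (chr19:12610814-12610919, GRCh38.p14, plus strand) are shown because this stretch is common to the pair. Capitals mark 2 GC boxes (GGGCGG) and 1 CCAAT box.
ZNF490-ZNF791: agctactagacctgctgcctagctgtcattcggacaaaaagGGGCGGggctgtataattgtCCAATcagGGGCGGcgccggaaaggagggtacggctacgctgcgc

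Cluster H held ZNF701, ZNF160 and ZNF534 among its rises. ZNF701 was at 15.6 and 17.1 CPM with DMSO and 88.8 and 86.2 CPM with MZ1 (2.42 ± 0.08; edgeR adjusted p = 9.01e-20). ZNF160, singled out after its values were seen, was at 31.2 and 33.5 CPM with DMSO and 153 and 158 CPM with MZ1, or 4.81-fold higher. ZNF534 was at 0.31 and 0.41 CPM with DMSO and 4.88 and 5.06 CPM with MZ1, and like ZNF578 it passed the filter through the MZ1 libraries alone. ZNF578 had 2 reads with DMSO and 85 with MZ1, a ratio of 50.6 (95% counting interval 13.6 to 425). ZNF808, whose loss is known to impair pancreas development, was at 13.8 and 12.2 CPM with DMSO and 28.5 and 25.3 CPM with MZ1 (1.05 ± 0.12). Among the 7 that fell ZNF615 had the largest fall, from 8.92 and 9.26 CPM to 3.96 and 4.55 CPM (−1.09 ± 0.19).

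In cluster I some close neighbours moved in opposite directions. ZNF772, ZNF419 and ZNF773 follow each other, ZNF772 on the minus strand and the others on the plus strand. ZNF772 (57466663 to 57477570) fell from 8.31 and 8.56 CPM to 0.42 and 0.51 CPM, or 17.8-fold (−4.16; 13 reads over the MZ1 libraries). It is 1 of the 4 genes that passed the filter through the DMSO libraries alone, so this is a description. ZNF419, whose start lies 10.1 kb away, rose from 7.33 and 7.85 CPM to 20.5 and 25.9 CPM (1.61 ± 0.14), and it was singled out after its values were seen. ZNF773 (57499915 to 57518404), 12.2 kb further on, rose from 9.10 and 8.38 CPM to 115 CPM in both MZ1 libraries, or 13.2-fold (3.72 ± 0.08; edgeR adjusted p = 3.33e-23). The MZ1 libraries lay below both DMSO libraries for ZNF772 and above them for the other two.

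The 250 bases before each RefSeq start of these neighbours are shown, 5′ to 3′ on the gene's own strand, because the genes lie side by side and moved in opposite directions (ZNF772, chr19:57477567-57477816, minus; ZNF419, chr19:57487500-57487749, plus; ZNF773, chr19:57499688-57499937, plus; all GRCh38.p14). Capitals mark matches, on either strand, to CCAAT, to the GC box GGGCGG and to the ETS core CCGGAAG.
ZNF772: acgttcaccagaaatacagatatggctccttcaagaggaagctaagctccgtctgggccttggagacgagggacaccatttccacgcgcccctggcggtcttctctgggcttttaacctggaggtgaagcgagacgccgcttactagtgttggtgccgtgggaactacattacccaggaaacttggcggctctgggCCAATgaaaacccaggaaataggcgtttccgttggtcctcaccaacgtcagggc
ZNF419: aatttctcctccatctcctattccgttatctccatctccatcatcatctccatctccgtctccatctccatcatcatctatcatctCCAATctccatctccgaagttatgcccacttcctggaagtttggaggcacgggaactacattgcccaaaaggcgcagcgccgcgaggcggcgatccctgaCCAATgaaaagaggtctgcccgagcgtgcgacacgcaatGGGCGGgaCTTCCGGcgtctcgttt
ZNF773: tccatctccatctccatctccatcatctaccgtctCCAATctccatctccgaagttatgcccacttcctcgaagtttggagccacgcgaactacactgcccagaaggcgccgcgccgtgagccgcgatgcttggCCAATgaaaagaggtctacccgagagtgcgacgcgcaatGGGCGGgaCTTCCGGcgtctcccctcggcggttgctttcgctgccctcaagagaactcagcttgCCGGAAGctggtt
The stretches of ZNF419 and ZNF773 were 89.4% identical over 198 aligned bases, and both hold a GC box next to an ETS core. That of ZNF772 could be aligned to them over 27 and 28 bases only and holds 1 CCAAT box and 0 of the other 2 motifs.

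Over the family, 205 of the 231 genes had a RefSeq promoter of 300 bases (250 before the start and 50 after it). The ETS core was in 91 of them (44.4%), beside 10.7% of all 27305 promoters of that length. CCAAT was in 53.2% beside 35.7%, and the GC box in 69.8% beside 44.6%. The TATA box TATAAA was in 1.95% beside 12.0%, and the E-box CACGTG, which MYC and MAX bind, in 3.90% beside 7.43%. Both strands were searched for all of them. Among 115 promoters of genes that rose 49.6% held the ETS core, 63.5% CCAAT and 77.4% the GC box. Among 52 of genes that fell the shares were 32.7%, 42.3% and 59.6%. Promoters of near relatives can be alike, as those of ZNF419 and ZNF773 are, and clusters C, D and H held most of the rises. These shares thus count genes that are not independent, and the differences were not tested. A match describes the letters and does not show that a factor binds.

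Other genes of cluster I moved in both directions. ZNF547 went from 2.14 and 2.24 CPM to 17.3 and 15.9 CPM (2.92 ± 0.18), and ZNF211 from 14.8 and 14.3 CPM to 81.3 and 80.2 CPM (2.47 ± 0.08; edgeR adjusted p = 9.88e-20). ZNF584 fell from 9.16 and 10.7 CPM to 0.50 and 1.45 CPM, or 10.2-fold (−3.35 ± 0.29; edgeR adjusted p = 8.99e-11). ZNF667 had 1 read with DMSO and 50 with MZ1, a ratio of 59.6 (95% counting interval 10.2 to 2399). It passed the filter through the MZ1 libraries alone, so this is a description. Its neighbour ZNF583 fell from 7.33 and 7.26 CPM to 1.70 and 1.88 CPM (−2.02 ± 0.24). ZNF587 and ZNF417, with ZNF814 between them, are near-identical genes known to repress the endogenous retrovirus HERV-K. ZNF587 was at 29.0 and 27.6 CPM with DMSO and 50.9 and 45.3 CPM with MZ1, and was called higher (0.77 ± 0.08). ZNF417 was at 17.3 and 16.6 CPM and at 16.1 and 16.2 CPM (−0.07 ± 0.12; edgeR adjusted p = 0.57), and 0.20 with upper-quartile scaling, also not called. The difference between ZNF587 and ZNF417 was not tested, and reads may be split between them. Other annotated genes, ZNF814 among them, also share 35.0% of the exonic length of ZNF587. ZNF814 was itself called higher (0.66), so the count of ZNF587 is uncertain.

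**Figure D4:**
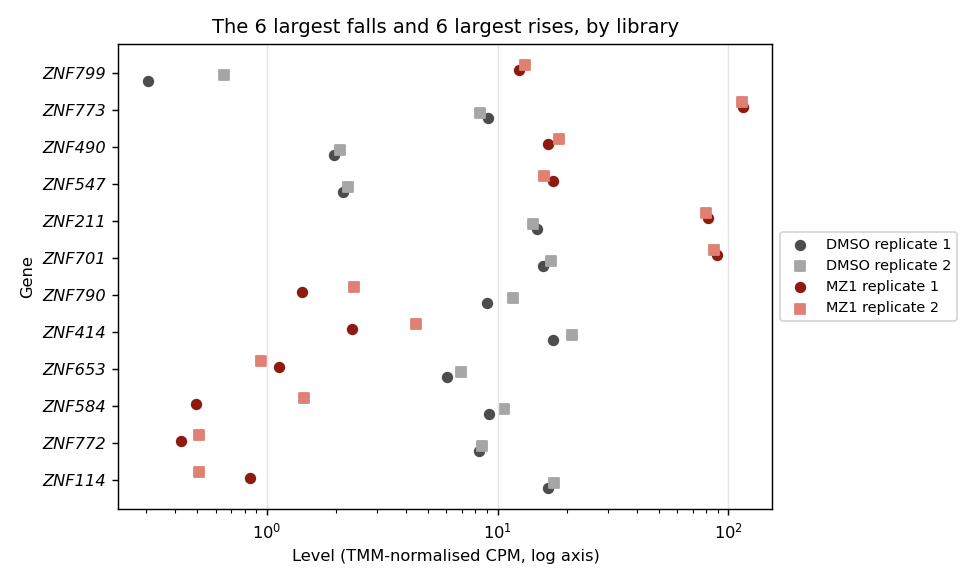
Level in each library (CPM, logarithmic horizontal axis) of the 6 genes with the largest rises and the 6 with the largest falls among called genes whose mean log2 CPM reached 2 (vertical axis). For each gene the libraries of the 2 groups do not overlap, as the choice of genes requires.

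The largest fall of the family was outside the clusters. ZNF114 (48270102 to 48287608, plus strand) was at 16.5 and 17.6 CPM in the DMSO libraries and 0.85 and 0.51 CPM in the MZ1 libraries. This is a 24.8-fold fall (−4.63; 19 reads over the MZ1 libraries; edgeR adjusted p = 2.57e-15), and the groups do not overlap.

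Clusters A, B, E, F and G each held genes that rose and genes that fell. In A ZNF555 rose from 9.59 and 9.62 CPM to 48.7 and 48.6 CPM (2.34 ± 0.10), and ZNF57 fell from 8.67 and 7.38 CPM to 3.32 and 2.31 CPM (−1.50 ± 0.23). ZNF556 between them had 2 reads with DMSO and 63 with MZ1 (ratio 37.5, 95% counting interval 9.96 to 317). It passed the filter through the MZ1 libraries alone, so its rise is a description. In B ZNF699 rose from 4.40 and 4.31 CPM to 16.3 CPM in both MZ1 libraries (1.90 ± 0.16). ZNF414 of B, without a KRAB match, fell from 17.3 and 21.1 CPM to 2.33 and 4.41 CPM (−2.51 ± 0.19). ZNF560 of B had 2 reads with DMSO and 36 with MZ1 (ratio 21.4, 95% counting interval 5.52 to 184). Like ZNF556 it passed the filter through the MZ1 libraries alone, and its rise is a description.

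In E ZNF792 fell from 6.60 and 6.43 CPM to 1.63 and 1.01 CPM (−2.29 ± 0.28), and ZNF599 rose from 5.07 and 6.37 CPM to 9.48 and 8.75 CPM (0.67 ± 0.18). In F ZNF382 rose from 4.52 and 4.60 CPM to 13.8 and 15.5 CPM (1.68 ± 0.16). ZNF790 of F fell from 8.98 and 11.6 CPM to 1.41 and 2.39 CPM (−2.44 ± 0.24). In G ZNF224, a KRAB protein known to interact with the transcription factor WT1, rose from 12.5 and 13.0 CPM to 41.7 and 41.1 CPM (1.69 ± 0.10). Other annotated genes, the antisense gene ZNF225-AS1 among them, share 40.5% of its exonic length, so part of its count is uncertain. ZNF576 of G, without a KRAB match, fell from 11.9 and 11.7 CPM to 3.75 and 3.11 CPM (−1.78 ± 0.18).

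The 4 genes with the highest DMSO level per length had no KRAB match. ZNF146, a short protein made almost only of fingers, was at 32.1 and 33.2 RPKM with DMSO and 17.9 and 18.7 RPKM with MZ1 and fell (log2 fold change −0.84 ± 0.05; edgeR adjusted p = 1.31e-13). ZNF428 was at 32.1 and 32.5 RPKM with DMSO and 27.0 and 26.1 RPKM with MZ1; it was called lower (−0.29 ± 0.07), but not with upper-quartile scaling (−0.01). ZNF581 was at 17.3 and 18.4 RPKM with DMSO and rose to 29.7 and 26.0 RPKM with MZ1 (0.64 ± 0.08). ZNF787 fell from 16.4 and 16.5 RPKM to 3.74 and 3.19 RPKM (−2.25 ± 0.09; edgeR adjusted p = 1.93e-17). The median over the tested genes was 2.88 RPKM with DMSO, beside 3.36 RPKM over all tested genes.

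Genes of the KRAB corepressor and of heterochromatin were looked at beside the family, from a list of 29 of which 28 had a row and all 28 were tested. Of these 18 fell (64.3%) and 9 rose (32.1%), with a median of −0.41, beside 48.8% lower and 38.5% higher over all tested protein-coding genes (median −0.20). With upper-quartile scaling 14 were lower and 10 higher (median −0.14), beside 5223 lower and 5734 higher of the 12639 tested protein-coding genes (median 0.07). TRIM28, the corepressor that KRAB domains bind and itself a gene of chromosome 19, was at 988 and 1006 CPM with DMSO and 1280 and 1246 CPM with MZ1, and rose by 0.34 ± 0.04 (edgeR adjusted p = 2.76e-09). SETDB1, which methylates histone H3 at lysine 9, fell from 65.1 and 60.9 CPM to 27.9 and 25.6 CPM (−1.24 ± 0.08; edgeR adjusted p = 1.24e-13). Its partner ATF7IP rose from 118 and 114 CPM to 305 and 297 CPM (1.38 ± 0.05). For these genes the groups did not overlap.

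Other histone methyltransferase genes of the list fell. EHMT2 (G9a) fell from 172 and 175 CPM to 32.3 and 30.5 CPM (−2.47 ± 0.06; edgeR adjusted p = 2.59e-22) and SUV39H1 from 35.4 and 36.4 CPM to 7.57 and 7.37 CPM (−2.26 ± 0.12). SUV39H2 and EHMT1 fell by 0.78 and 0.44 on the log2 scale. Among chromatin remodellers CHD3 fell 4.59-fold and SMARCAD1 5.47-fold, and the histone chaperone gene DAXX fell 3.21-fold. UHRF1 and DNMT1, which maintain DNA methylation, fell 4.198-fold and 1.97-fold. The HP1 gene CBX1 fell by 0.55, while CBX3 (−0.22) and CBX5 (−0.31) were called lower but were at 0.05 and −0.04 with upper-quartile scaling and not called.

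The HUSH complex, which silences transposable elements and young genes, was split. MPHOSPH8 rose by 0.93 ± 0.06 and MORC2, which acts with it, by 0.44 ± 0.06. TASOR (−0.38 ± 0.06) and PPHLN1 (−0.18 ± 0.05) were called lower, but neither with upper-quartile scaling (−0.11 and 0.09), nor PPHLN1 with DESeq2 (adjusted p = 0.0685). ATRX was not called (0.05 ± 0.05; edgeR adjusted p = 0.393), but was called higher with upper-quartile scaling (0.32) and with a stricter count filter (0.12). ZNF445, a KRAB zinc finger gene of another chromosome that guards imprinted regions, rose from 101 and 88.1 CPM to 174 CPM in both MZ1 libraries (0.88 ± 0.06).

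**Figure D5:**
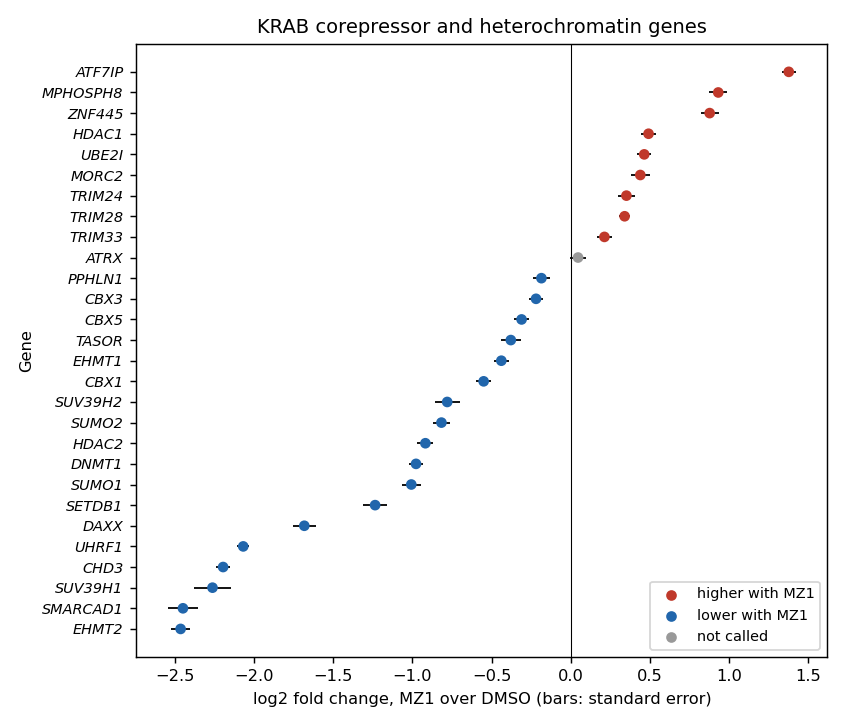
Log2 fold change (MZ1 over DMSO, horizontal axis, bars 1 standard error) of the 28 tested genes of the KRAB corepressor and heterochromatin list (vertical axis), coloured by call. EHMT2, SMARCAD1 and SUV39H1 lie furthest to the left and ATF7IP furthest to the right, with 18 called lower and 9 higher.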

How the data were processed

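The authors deposited a table of raw read counts with Ensembl gene IDs, per the file headers, for 2 DMSO and 2 MZ1 libraries. Per the submitters' processing notes, HISAT2 2.2.0 and hg38 were used. The counting method and its strand setting: not given in the sources used here. Reads of overlapping and antisense genes therefore cannot be told apart. Symbols came from the gene name table, positions and gene types from GENCODE release 29 (GRCh38), and promoters from RefSeq (GRCh38.p14).

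The whole table was fitted in R 4.3.3 with edgeR 4.0.16: filterByExpr by group, TMM, glmQLFit and glmQLFTest with treatment as the only term, and Benjamini-Hochberg adjustment over all 16862 tested genes. Standard errors come from the coefficient and the F statistic and are not given for genes with few reads in a group. Ratios of genes with 1 to 3 reads in a group have an exact 95% interval that covers counting error only. The replicates differed by more than sampling noise (chi-square over its degrees of freedom was 2.44 between the DMSO and 2.17 between the MZ1 libraries). With 2 libraries against 2, a permutation cannot give a two-sided p below 0.333. Alternatives were DESeq2 1.42.0, limma 3.58.1 with voom, other scalings and filters, a replicate block, other cluster gaps, and each library left out.

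C2H2 and KRAB matches were counted by pattern in the longest reading frame of GENCODE's coding transcripts of each gene, so a missed KRAB domain is possible. RefSeq proteins, foreseen for this, were not used here. Genes were named by a rule: the 6 strongest changes in each direction (called genes whose mean log2 CPM reached 2), the strongest in each direction per cluster (called genes whose mean log2 CPM reached 1, which passes over larger changes of scarcer genes), the 4 highest levels, the extremes of finger number, and the corepressor list. Those named outside it, chosen after their values were seen or for a known target, are ZNF93, ZNF160, ZNF274, ZNF417, ZNF419, ZNF442, ZNF556, ZNF560, ZNF563, ZNF564, ZNF578, ZNF583, ZNF587, ZNF667, ZNF763, ZNF791 and ZNF808. The genes and lists were chosen with earlier results of these data known.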

Additional observations from a re-analysis of the deposited data

How the results depend on the processing

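Counts of higher and lower genes stayed within 1.5 times in every alternative run, at 115 to 144 higher and 48 to 65 lower over scalings, filters and tests, and at 96 and 43 among genes with at most 10% of their exonic length shared. The median log2 fold change of 0.43 was 0.70 with upper-quartile scaling, 0.35 with library totals alone and 0.47 with the stricter count filter, and 0.37 to 0.48 with a library left out. A median above 0 was found in 7 of 9 clusters, in 8 with upper-quartile scaling, and in 4 of the 6 longer clusters that runs within 2 Mb give. Of the 7, B (0.02) and E (0.01) were below the median of all tested genes (0.05). With upper-quartile scaling the median of all tested genes was 0.32, and B (0.29), E (0.28) and F (0.25) were below it, as was G (−0.29). Leaving out a library gave 117 to 123 higher and 56 to 58 lower genes, in fits where 1 group has a lone library assumed to vary like the other group. With upper-quartile scaling ZNF738 was at 0.080, ZNF417 at 0.20, CBX3 at 0.053 and PPHLN1 at 0.087, all on the other side of 0 and not called. ATRX, not called in the first place, was at −0.0298 when libraries were scaled by totals, at −0.0301 with no count filter, and between −0.0010 and 0.098 with a library left out, the lowest being without MZ1 replicate 1. The same replicate numbers did not deviate together (correlation 0.01). With 2 libraries per group this rests on a lone difference in each group, so it cannot exclude a shared culture or day. With the replicate block 125 genes were higher and 57 lower (median 0.43), and of the named genes ZNF738 alone lost its call (adjusted p = 0.0537). Depth limits the genes with 1 or 2 reads in the DMSO libraries, whose ratios have wide intervals.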
